A study of Mus musculus with 6 samples.

Results

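Genes of the major histocompatibility complex (MHC) and of antigen presentation were compared between tdTOMATO+ and tdTOMATO- CFU-Fs. The genes were taken by name: every row of the expression table whose symbol begins with H2-, the prefix of the mouse MHC, and 16 named genes of the pathway. Of 14735 genes in the table, 36 met this rule, 21 of them by the prefix. Of these, 28 belong to the class I pathway and 7 to class II, while *H2-Ke2* (*Pfdn6* in a later annotation) lies in the H2-K region and encodes no MHC molecule. *Ciita*, the master activator of class II genes, was named by the rule and has no row in the table.

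A CFU-F (colony forming unit, fibroblastic) is a colony that grows from 1 plated marrow stromal cell. The 3 tdTOMATO+ and the 3 tdTOMATO- CFU-Fs came from hind limb marrow of 2-month-old C57BL/6 mice of the genotype *Col10a1Cre; Rosa26fs-tdTomato*, so both groups carry the Cre and the reporter. *Col10a1* drives Cre in hypertrophic chondrocytes, the enlarged cartilage cells next to the forming bone, and their descendants keep the tdTOMATO fluorescence, by which the colonies were told apart under the microscope; a tdTOMATO- colony is defined only by showing none. Colonies grew in 2% oxygen and were lysed whole at day 10 inside a cloning cylinder, so a library holds the RNA of every cell in the cylinder, and fewer cells of a type and less RNA per cell cannot be told apart. No source says whether each colony is from a mouse of its own, and the p-values therefore measure colony-to-colony spread, which may be technical.

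Class I molecules, a heavy chain paired with the light chain beta-2-microglobulin, sit on nearly all nucleated cells and show peptides cut by the proteasome, carried into the endoplasmic reticulum by the TAP transporter and loaded there with the help of chaperones. Class II molecules, an alpha and a beta chain guided by the invariant chain CD74, show peptides made in endosomes and lysosomes and are kept mainly to dendritic cells, B cells and macrophages, although interferon gamma can induce them in stromal cells. In both classes the promoters share a short module that binds RFX, CREB and NF-Y proteins, on which NLRC5 acts for class I and CIITA for class II.

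Between 24085516 and 31046589 reads fell in genes per library. Values are normalized counts, the reads of a gene divided by the size factor of its library, and the test was limma, two-sided, fitted to log2(normalized count + 1) of all 14735 genes, whose p-values were adjusted together by the Benjamini-Hochberg method. With a threshold of 0.05 on the adjusted p 177 genes (1.2%) passed as higher in tdTOMATO+ CFU-Fs and 21 (0.143%) as lower. The stromal label held in its markers: all 9 genes of a marrow stroma list were measured, among them the collagen gene *Col1a1* at 484865 to 664883 counts in the tdTOMATO+ CFU-Fs and 592416 to 726469 in the tdTOMATO- CFU-Fs, and limma called 0 of the 9, with 1 higher and 1 lower at an unadjusted p under 0.05. The higher one was *Lepr*, the leptin receptor of marrow stromal cells, with 408, 354 and 1132 counts in the tdTOMATO+ CFU-Fs and 97.3, 69.4 and 108 in the tdTOMATO- CFU-Fs. These groups did not overlap, at a log2 fold change of 2.59 ± 0.46 (SE, adjusted p = 0.0647 by limma and 4.933e-09 by DESeq2). All colonies also held macrophage RNA. Of 16 macrophage markers, a list that holds genes already seen to differ in these data, 15 had a row. All 15 had a log2 fold change above 0, with a median of 0.83, and limma called 11 of them higher in tdTOMATO+ CFU-Fs. That count was 1 without tdTOMATO+ replicate 1 or 2, 2 without tdTOMATO- replicate 2, 7 without tdTOMATO- replicate 3 and 0 by limma without its trend and robust options. Their summed level was 69481 to 73588 counts in the tdTOMATO+ CFU-Fs and 39506 to 39840 counts in the tdTOMATO- CFU-Fs, and their part in the values below was not tested. Of the defining markers of other antigen-presenting or blood cells, most had no row: 3 of 9 of dendritic cells, 1 of 7 of B cells, 1 of 7 of T and NK cells and 1 of 6 of neutrophils were measured, and limma called 0 of these 6, with 3 higher at an unadjusted p under 0.05. The 3 dendritic genes summed to 88.3 to 130 counts in the tdTOMATO+ CFU-Fs and 101 to 237 in the tdTOMATO- CFU-Fs, and *Cd79b* of B cells had 2.06 to 8.58 and 0 to 1.14. *Cd4* of T cells had 5.16, 14.6 and 22.1 counts in the tdTOMATO+ CFU-Fs and 0, 0.964 and 1.00 in the tdTOMATO- CFU-Fs, without overlap. Its adjusted p was 0.0967 by limma and 0.0321 by DESeq2, which is no support for a difference because of the same filter. The part of these cells in the values below was not tested.

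Of the 36 MHC and antigen presentation genes, 29 had a log2 fold change above 0 in tdTOMATO+ over tdTOMATO- CFU-Fs, against 49.0% of all genes, but limma called no single one of them. The classical heavy chains *H2-K1* and *H2-D1*, the class I activator *Nlrc5*, the inducible proteasome subunit *Psmb9* and, in class II, *H2-Aa* and *Cd74* were among those with the larger differences. The median log2 fold change was 0.39 over the 36 genes, 0.40 over the 28 of class I and 0.20 over the 7 of class II, beside -0.00 over all genes. These medians moved with single colonies. Without tdTOMATO- replicate 1 the median was 0.21 over the 36 genes and 0.25 over class I, and leaving out tdTOMATO+ replicate 3 gave 0.25 over the 36. Over class II it was 0.32 without tdTOMATO+ replicate 1, 0.054 without tdTOMATO+ replicate 3, 0.12 without tdTOMATO- replicate 2 and 0.36 without tdTOMATO- replicate 3. *H2-M1*, which had reads in 1 colony only, has no meaningful fold, and without it the medians were 0.39 over 35 genes and 0.39 over 27 of class I.

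At the adjusted threshold limma called 0 of the 36 genes higher (beside 1.2% of all genes) and 0 lower (beside 0.143%). At an unadjusted p under 0.05 it found 12 higher (33.3%, beside 7.53% of all genes) and 0 lower (beside 4.79%). The quasi-likelihood test of edgeR on the recovered reads also called 0 higher (beside 1.15%) and 0 lower (beside 0.129%), with 11 higher (beside 7.66%) and 0 lower (beside 4.71%) at an unadjusted p under 0.05. DESeq2 on the same reads called 0 lower (beside 1.12%) and 5 higher (beside 3.52%): *H2-D1*, *Nlrc5*, *Psmb9*, *H2-Aa* and *Cd74*. On simulated data 51 of 232 DESeq2 calls were false, beside 13 of 181 by limma. Calls by DESeq2 alone can therefore hold more false ones than the threshold of 0.05 states, and the limma calls there also held more. The simulation was a single run. All changed genes in it were raised in tdTOMATO+ CFU-Fs, none at counts as low as those of *H2-Aa*. Every tdTOMATO+ CFU-F lay above every tdTOMATO- CFU-F for 9 of the 36 genes (25.0%, beside 9.89% of all genes) and below for 0 (beside 8.33%). These 9 were *H2-D1*, *H2-M3*, *B2m*, *Nlrc5*, *Psmb9* and *Erap1* of class I and *H2-Aa*, *Cd74* and *Ifi30* of class II. *H2-Aa* reached the 10 reads needed for a row only in tdTOMATO+ CFU-Fs, so its place in these counts is no support for a difference. The count at an unadjusted p hung on single colonies: it was 6 without tdTOMATO+ replicate 3, 7 without tdTOMATO- replicate 1 and 22 without tdTOMATO- replicate 3. No count over all genes stands beside these, so the shift is not read as particular to the 36 genes.

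**Figure D1:**
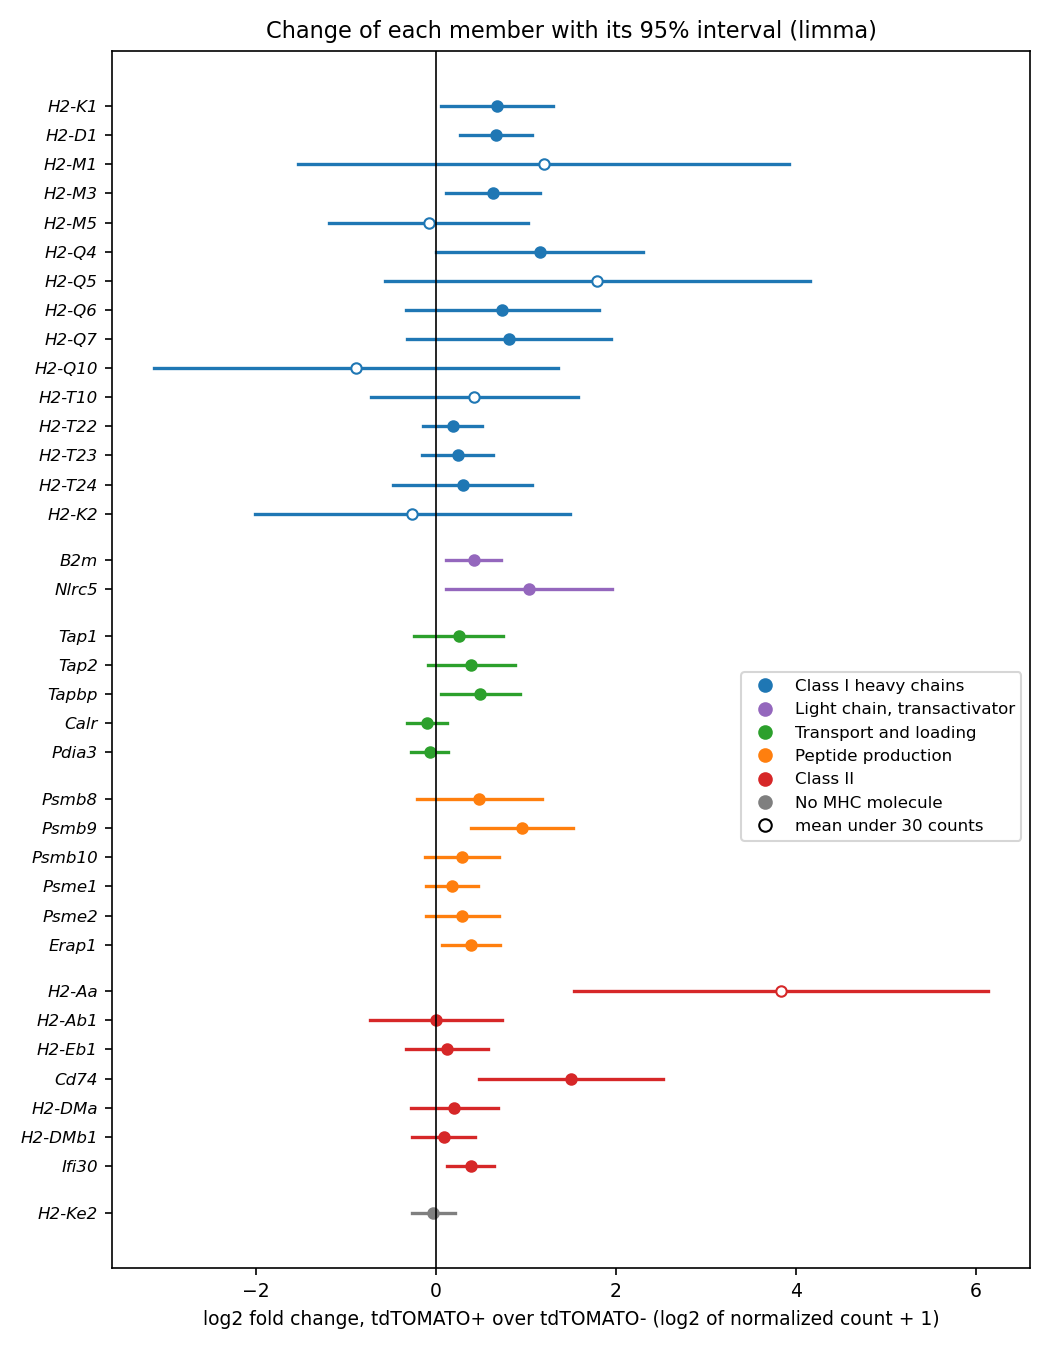
Log2 fold change (tdTOMATO+ over tdTOMATO-) of the 36 genes on the x axis, 1 row per gene, with the 95% interval of limma as a line and the color giving the role; open circles mark the 7 genes with a mean under 30 normalized counts. Most circles lie right of 0, *H2-Aa* (3.83) and *Cd74* (1.50) among the farthest.

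Among the classical class I heavy chains, *H2-D1* was the more abundant. *H2-D1* (chr17:35262730-35267499, plus strand, GRCm38) had 5691, 4640 and 7294 normalized counts in the tdTOMATO+ CFU-Fs and 3245, 3733 and 3972 in the tdTOMATO- CFU-Fs. The groups did not overlap, tdTOMATO+ replicate 3 being the highest colony. Its log2 fold change was 0.67 ± 0.17 (SE, 95% interval 0.27 to 1.07), with an adjusted p of 0.156 by limma, 0.147 by edgeR and 0.00301 by DESeq2. Over all 15 alternative settings the adjusted p of *H2-D1* ran between 0.00301 and 0.324.

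*H2-K1* (chr17:33996017-34000347, minus strand), the other classical heavy chain, had 3490, 3074 and 4800 counts in the tdTOMATO+ CFU-Fs and 1897, 2037 and 3270 in the tdTOMATO- CFU-Fs. The groups overlapped, because tdTOMATO- replicate 3 lay above tdTOMATO+ replicate 2. The log2 fold change of 0.68 ± 0.26 (SE) was as large as that of *H2-D1*, with a wider spread and an adjusted p of 0.363 by limma. *B2m*, which encodes the light chain, was the most abundant of these genes per length, at 19957 counts per kb of exon in the tdTOMATO+ CFU-Fs and 14859 in the tdTOMATO- CFU-Fs, against 2278 and 1415 for *H2-D1* and 1289 and 817 for *H2-K1*. Its counts were 15974, 15076 and 20438 in the tdTOMATO+ CFU-Fs and 11530, 12822 and 13984 in the tdTOMATO- CFU-Fs, again without overlap. The log2 fold change of *B2m* was 0.42 ± 0.13 (SE, adjusted p = 0.231 by limma and 0.0553 by DESeq2).

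**Figure D2:**
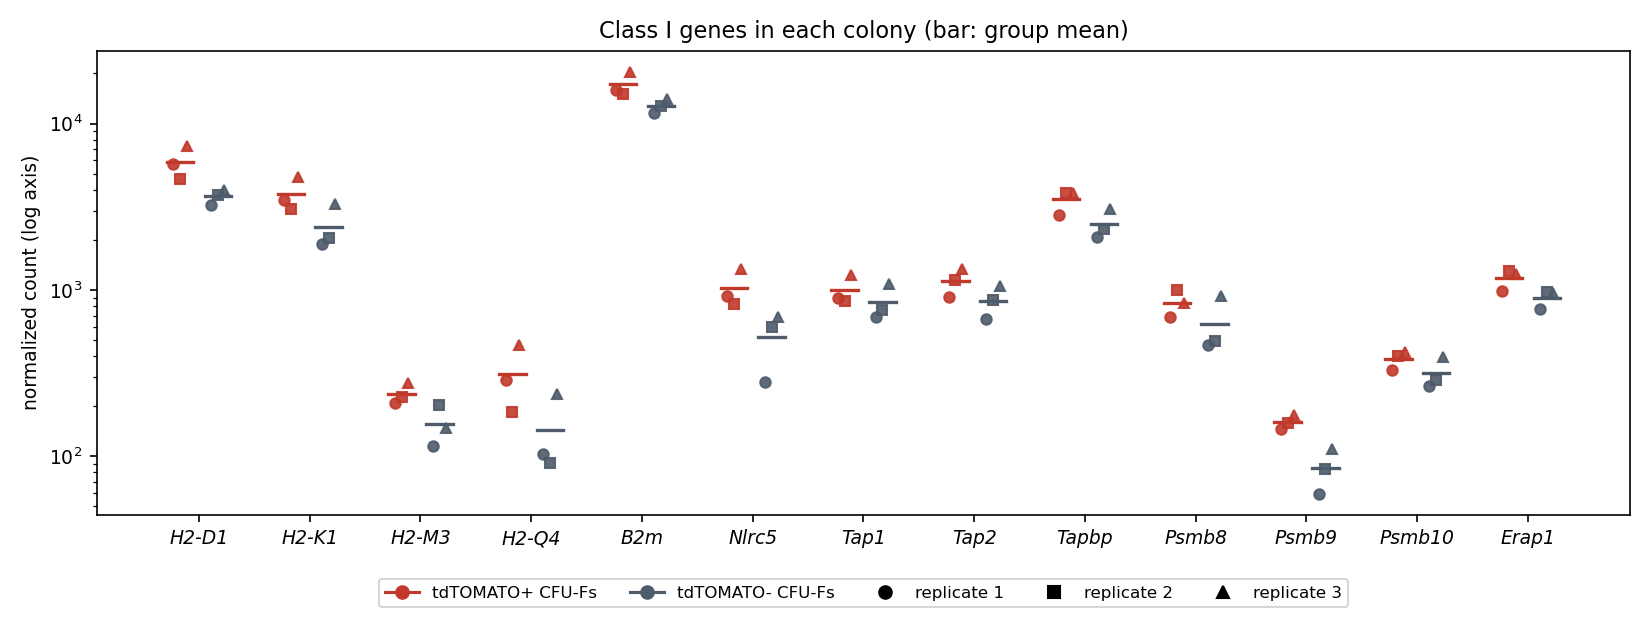
Normalized counts (log y axis) of 13 class I genes in each colony, tdTOMATO+ CFU-Fs in red on the left and tdTOMATO- CFU-Fs in gray on the right of each gene; symbols give the replicate and bars the group mean. *H2-D1*, *H2-M3*, *B2m*, *Nlrc5*, *Psmb9* and *Erap1* show no overlap between groups, and replicate 3 tends to be the highest colony of either group.

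The promoters of these genes carry the shared module in readable form. To show it, RefSeq promoters (GRCm38.p6, 250 bases before to 50 after the start of a gene) were searched on both strands for TGANG, then 19 to 21 bases, then ATTGG, letters chosen after promoters of these genes had been looked at; the first block is the core of the X2 box and the second the Y box. The search hit 311 of 32851 promoters (0.947%). Of the 28 genes with a promoter in the table, 8 held it, 5 of 22 in class I (*H2-K1*, *H2-D1*, *H2-M3*, *H2-Q7* and *B2m*) and 3 of 5 in class II. A match describes the sequence and does not show that a factor binds there. *Psmb9* and *Erap1*, whose groups did not overlap, did not hold it. The stretches of *H2-D1*, *H2-K1*, *B2m* and *H2-M3* are given 5′ to 3′ on the strand of the gene, with both blocks in capitals:
H2-D1 (chr17:35262971-35263030, plus strand): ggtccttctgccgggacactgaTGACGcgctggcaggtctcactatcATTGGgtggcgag
H2-K1 (chr17:34000351-34000410, minus strand): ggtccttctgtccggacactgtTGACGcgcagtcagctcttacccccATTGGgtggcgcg
B2m (chr2:122147587-122147646, plus strand): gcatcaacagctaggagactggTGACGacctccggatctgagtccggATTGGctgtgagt
H2-M3 (chr17:37270166-37270225, plus strand): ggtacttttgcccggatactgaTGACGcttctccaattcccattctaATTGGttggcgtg
All 4 had the same first block and a spacer of 20 bases, and they start 101 (*H2-D1*), 41 (*H2-K1*), 78 (*B2m*) and 46 (*H2-M3*) bases before the start of the gene in RefSeq. The GENCODE span of *H2-D1* given above begins farther upstream than its RefSeq start, at 35262730 instead of 35263094, so the module lies inside that span. The interferon-stimulated response element, searched as GAAA, any 2 bases and GAAA on both strands, was found in *B2m*, *H2-T22*, *H2-T23*, *Psme1* and *Erap1*, and in 3.44% of all promoters. *Nlrc5*, *Tap2*, *Cd74* and *H2-Ab1* were among 8 genes with no entry in the promoter table.

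*Nlrc5*, whose protein drives class I transcription from this module, had 917, 818 and 1327 counts in the tdTOMATO+ CFU-Fs and 281, 600 and 691 in the tdTOMATO- CFU-Fs. The groups did not overlap, and tdTOMATO- replicate 1 was by far the lowest colony. The log2 fold change was 1.03 ± 0.38 (SE, 95% interval 0.11 to 1.95), with an adjusted p of 0.344 by limma, 0.360 by edgeR and 0.0447 by DESeq2. Over the 15 alternatives the adjusted p of *Nlrc5* ran between 0.0447 and 0.621, and its log2 fold change between 0.63 and 1.28. The proteins that NLRC5 and CIITA need on the promoter had gene values of either sign: *Rfx5*, *Rfxap* and *Rfxank*, the RFX subunits, had log2 fold changes of 0.05, -0.26 and 0.15, *Nfya*, *Nfyb* and *Nfyc*, the NF-Y subunits, had 0.16, 0.04 and -0.19, and *Creb1* had -0.06. limma called none of these 7, whose smallest adjusted p was 0.552.

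The 12 non-classical class I heavy chains with a row lie in the Q, T and M regions of chromosome 17, and 10 of them had a log2 fold change above 0, with a median of 0.53, or 0.42 over 11 without *H2-M1*. *H2-M3*, which presents formylated peptides of bacteria and mitochondria, was the clearest: it had 209, 227 and 276 counts in the tdTOMATO+ CFU-Fs and 116, 203 and 148 in the tdTOMATO- CFU-Fs. Its log2 fold change was 0.63 ± 0.22 (SE, adjusted p = 0.295 by limma), without overlap. *H2-Q4*, a chain of the Qa group, had 289, 184 and 465 counts in the tdTOMATO+ CFU-Fs and 103, 91.6 and 236 in the tdTOMATO- CFU-Fs. Its groups overlapped, at a log2 fold change of 1.15 ± 0.47 (SE, adjusted p = 0.403 by limma). *H2-Q6* and *H2-Q7*, whose protein is known as Qa-2, had log2 fold changes of 0.74 ± 0.46 and 0.81 ± 0.48 (SE, adjusted p = 0.605 and 0.584 by limma). *H2-T23*, which encodes Qa-1, a ligand of inhibitory receptors on NK cells, had 0.24, and *H2-T22*, *H2-T24* and *H2-T10* had 0.18, 0.30 and 0.42, with adjusted p-values by limma of 0.663 to 0.820.

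The remaining heavy chain genes were near the lower limit of the assay. *H2-M1* had 11 reads in tdTOMATO+ replicate 3 and 0 in the other 5 libraries, where 0 reads allow up to 2.57 to 3.44 normalized counts (3 reads, counting error only). *H2-M5* had 7 to 19 reads in the tdTOMATO+ CFU-Fs and 8 to 16 in the tdTOMATO- CFU-Fs, and *H2-Q5* had 8 to 21 and 0 to 13. *H2-Q10*, known as a secreted heavy chain of the liver, had 1 to 9 reads in the tdTOMATO+ CFU-Fs and 2 to 25 in the tdTOMATO- CFU-Fs, and the pseudogene *H2-K2* had 2 to 9 and 2 to 10. A gene entered the table with 10 or more reads in 1 library, so *H2-M1* and *H2-Aa* are in it only through tdTOMATO+ CFU-Fs, and *H2-Q10* and *H2-K2* only through tdTOMATO- CFU-Fs, and counts over the 36 genes are descriptions of rows that passed this filter.

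Heavy chain genes resemble each other, and reads that fit more than 1 place were dropped before counting. Of all 50-base stretches in the annotated transcripts of a gene, 53.5% in *H2-T22* and 50.4% in *H2-T10* also occur in transcripts of another gene, as do 36.4% in *H2-Q4* and *H2-Q5*, 35.0% in *H2-Q6* and 26.5% in *H2-Q7*. These shares count matches on either strand and to any gene, also to one annotated opposite at the same place. Such opposite genes cover 29.38% of the exon bases of *H2-T22*, 27.05% of *H2-T10* and 19.11% of *H2-Q4*. The shares can therefore exceed the likeness to other heavy chains. They count exact matches only, so stretches that differ by a base are left out. The levels of these genes remain uncertain, and a read of 50 bases could be given to a neighbor. For *H2-D1* and *H2-K1* the shares were 12.8% and 9.63%, and for *H2-M3*, *H2-Aa* and *Nlrc5* they were 0.576%, 0.514% and 0.338%. *B2m*, *H2-Ab1*, *H2-Eb1* and *Cd74* had none.

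In peptide transport and loading, 3 of 5 genes had a log2 fold change above 0. *Tap1*, 1 of the 2 chains of the transporter, had 899, 863 and 1222 counts in the tdTOMATO+ CFU-Fs and 686, 759 and 1082 in the tdTOMATO- CFU-Fs (log2 fold change 0.25 ± 0.21, SE, adjusted p = 0.725 by limma). *Tap2*, the other chain, had 905, 1141 and 1330 counts in the tdTOMATO+ CFU-Fs and 666, 867 and 1050 in the tdTOMATO- CFU-Fs (0.39 ± 0.20, SE, adjusted p = 0.510 by limma). Both overlapped between groups. *Tapbp* encodes tapasin, which tethers class I molecules to the transporter, and had 2809, 3839 and 3843 counts in the tdTOMATO+ CFU-Fs and 2069, 2329 and 3080 in the tdTOMATO- CFU-Fs. Its log2 fold change was 0.49 ± 0.18 (SE, adjusted p = 0.344 by limma), and tdTOMATO- replicate 3 lay above the lowest tdTOMATO+ CFU-F. *Calr* (calreticulin) and *Pdia3* (ERp57), general chaperones of the endoplasmic reticulum that also serve the loading complex, had log2 fold changes of -0.10 ± 0.09 and -0.07 ± 0.09 (SE, adjusted p = 0.763 and 0.831 by limma), with 95% intervals of -0.32 to 0.12 and -0.27 to 0.13.

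Interferon gamma induces 3 catalytic subunits that take the place of the constitutive ones in the proteasome, and of these *Psmb9* had the largest difference. *Psmb9* had 146, 160 and 177 counts in the tdTOMATO+ CFU-Fs and 59.5, 83.9 and 111 in the tdTOMATO- CFU-Fs. All tdTOMATO+ CFU-Fs lay above all tdTOMATO- CFU-Fs, at a log2 fold change of 0.96 ± 0.24 (SE, 95% interval 0.39 to 1.52). The adjusted p was 0.139 by limma, the smallest of the 36 genes, 0.159 by edgeR and 0.0222 by DESeq2, and it ran between 0.0222 and 0.395 over the 15 alternatives. *Psmb8* had 688, 999 and 830 counts in the tdTOMATO+ CFU-Fs and 465, 494 and 915 in the tdTOMATO- CFU-Fs (log2 fold change 0.48 ± 0.29, SE, adjusted p = 0.596 by limma). *Psmb10* had 328, 400 and 422 counts in the tdTOMATO+ CFU-Fs and 263, 288 and 396 in the tdTOMATO- CFU-Fs (0.29 ± 0.18, SE, adjusted p = 0.588 by limma). In both, tdTOMATO- replicate 3 stood with the tdTOMATO+ CFU-Fs.

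A ratio of each inducible subunit to the constitutive subunit it replaces does not depend on the scaling between libraries. *Psmb9*/*Psmb6* was 0.0678, 0.0703 and 0.0786 in the tdTOMATO+ CFU-Fs and 0.0271, 0.0383 and 0.0473 in the tdTOMATO- CFU-Fs, 1.97-fold higher in tdTOMATO+ CFU-Fs (two-sided exact permutation test, p = 0.1, the smallest that 3 against 3 can give; adjusted p = 0.3 over the 3 ratios). *Psmb8*/*Psmb5* was 1.79, 2.22 and 1.71 in the tdTOMATO+ CFU-Fs and 1.09, 1.22 and 2.18 in the tdTOMATO- CFU-Fs (log2 difference 0.41, exact p = 0.3, adjusted p = 0.4). *Psmb10*/*Psmb7* was 0.131, 0.156 and 0.152 in the tdTOMATO+ CFU-Fs and 0.105, 0.111 and 0.169 in the tdTOMATO- CFU-Fs (log2 difference 0.22, exact p = 0.4, adjusted p = 0.4). The constitutive subunits *Psmb5*, *Psmb6* and *Psmb7* themselves had log2 fold changes of 0.07, -0.01 and 0.07.

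**Figure D3:**
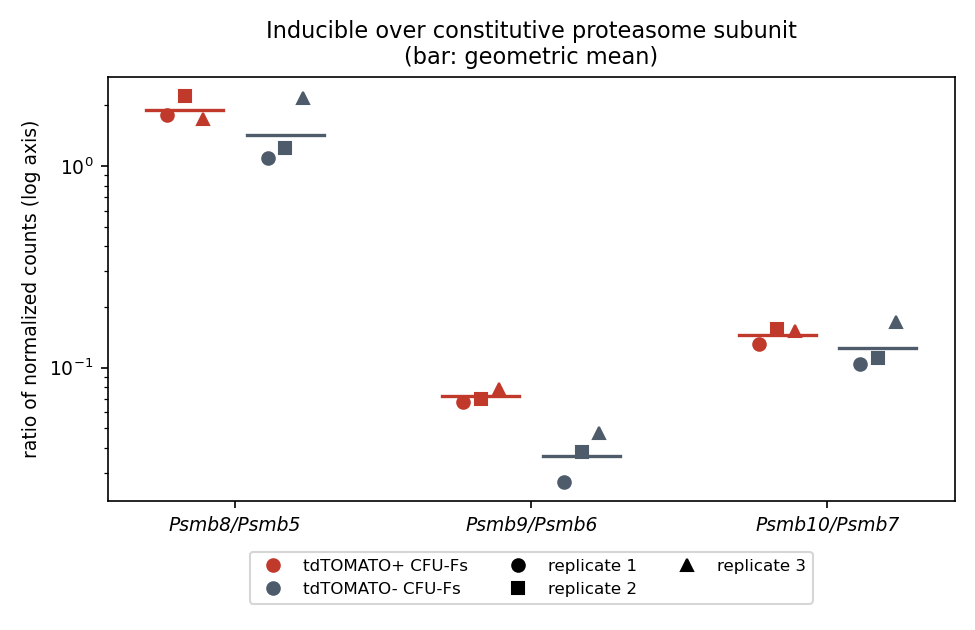
Ratio of the normalized count of each inducible proteasome subunit to that of the constitutive subunit it replaces (log y axis) in each colony, tdTOMATO+ CFU-Fs in red on the left and tdTOMATO- CFU-Fs in gray on the right of each pair; bars give the geometric mean. The groups are apart for *Psmb9*/*Psmb6* (0.0678 to 0.0786 and 0.0271 to 0.0473), while tdTOMATO- replicate 3 lies within or above the tdTOMATO+ CFU-Fs for the other pairs.

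*Psme1* and *Psme2*, which encode the PA28 activator of the proteasome, had log2 fold changes of 0.18 and 0.29 (adjusted p = 0.651 and 0.584 by limma). *Erap1*, the aminopeptidase that trims peptides in the endoplasmic reticulum, had 984, 1307 and 1249 counts in the tdTOMATO+ CFU-Fs and 764, 966 and 961 in the tdTOMATO- CFU-Fs. The groups did not overlap, and the log2 fold change was 0.39 ± 0.14 (SE, adjusted p = 0.297 by limma). All 6 genes of peptide production had a log2 fold change above 0, with a median of 0.34. Whether reads were counted by strand is not given in the sources used here: *Erap1* shares 834 exon bases (11.5%) with *Cast* on the opposite strand, which averaged 4481 counts, and *Psmb9* and *Tap1* share 212 exon bases on opposite strands.

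In class II, *H2-Aa* and *Cd74* had the largest differences, both with higher counts in every tdTOMATO+ CFU-F, *Ifi30* had a small one without overlap, and the groups overlapped for the beta chains and the peptide exchange genes. *H2-Aa* (chr17:34282744-34287823, minus strand), the alpha chain of I-A, had 8.25, 35.2 and 57.3 normalized counts in the tdTOMATO+ CFU-Fs, from 8, 41 and 57 reads, and 5.72, 0 and 0 in the tdTOMATO- CFU-Fs, from 5, 0 and 0 reads. The groups did not overlap, yet the lowest tdTOMATO+ CFU-F and the highest tdTOMATO- CFU-F were 3 reads apart. The log2 fold change was 3.83 ± 0.98 (SE, 95% interval 1.53 to 6.13), with an adjusted p of 0.148 by limma, 0.211 by edgeR and 0.0125 by DESeq2. Over the 15 alternatives the adjusted p of *H2-Aa* ran between 0.0125 and 0.434, and its log2 fold change between 2.32 and 4.75. Without tdTOMATO- replicate 1 the adjusted p by limma was 0.0445, but the tdTOMATO- libraries left then had 0 reads of *H2-Aa*, so that value is no support for a difference.

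*H2-Ab1* (chr17:34257689-34269419, plus strand), the beta chain that pairs with *H2-Aa*, was present in every colony: it had 502, 545 and 535 counts in the tdTOMATO+ CFU-Fs and 417, 402 and 879 in the tdTOMATO- CFU-Fs. The highest colony was tdTOMATO- replicate 3, and the groups overlapped. The log2 fold change of -0.00 ± 0.30 (SE, 95% interval -0.74 to 0.73, adjusted p = 0.998 by limma) turned to 0.36 without that colony (adjusted p = 0.173 by limma) and to 0.00 and 0.03 with TMM and total read scaling. Per length, the partners were far apart: *H2-Ab1* stood at 205 counts per kb of exon in the tdTOMATO+ CFU-Fs and 220 in the tdTOMATO- CFU-Fs, *H2-Aa* at 8.84 and 0.502. In counts, *H2-Aa* was 1.64%, 6.46% and 10.7% of *H2-Ab1* in the tdTOMATO+ CFU-Fs and 1.37%, 0% and 0% in the tdTOMATO- CFU-Fs. All colonies thus held far less RNA of the alpha chain than of the beta chain, and the tdTOMATO- replicate with the most *H2-Ab1* had no read of *H2-Aa*.

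*H2-Eb1* (chr17:34305867-34316674, plus strand), the beta chain of I-E, had 59.8, 68.6 and 74.4 counts in the tdTOMATO+ CFU-Fs and 58.4, 61.7 and 65.1 in the tdTOMATO- CFU-Fs (log2 fold change 0.12 ± 0.20, SE, adjusted p = 0.876 by limma). *Cd74*, the invariant chain that blocks the groove and steers class II molecules to endosomes, had 43.3, 89.2 and 102 counts in the tdTOMATO+ CFU-Fs and 41.2, 16.4 and 24.1 in the tdTOMATO- CFU-Fs. Every tdTOMATO+ CFU-F lay above every tdTOMATO- CFU-F, narrowly so for the replicates numbered 1. The log2 fold change of *Cd74* was 1.50 ± 0.44 (SE, 95% interval 0.48 to 2.52), with an adjusted p of 0.202 by limma, 0.200 by edgeR and 0.0356 by DESeq2, and a range of 0.0356 to 0.531 over the 15 alternatives.

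*H2-DMa* and *H2-DMb1* encode the chains of the molecule that exchanges the fragment of CD74 for a peptide. *H2-DMa* had 100, 110 and 145 counts in the tdTOMATO+ CFU-Fs and 99.6, 87.7 and 118 in the tdTOMATO- CFU-Fs (log2 fold change 0.20 ± 0.21, SE, adjusted p = 0.785 by limma). *H2-DMb1* had 169, 183 and 214 counts in the tdTOMATO+ CFU-Fs and 197, 173 and 162 in the tdTOMATO- CFU-Fs (0.09 ± 0.15, SE, adjusted p = 0.889 by limma). Neither pair of groups was apart. *H2-DMa* shares 360 exon bases (10.4%) with *Brd2* on the opposite strand, which averaged 6088 counts, and 22.7% of the 50-base stretches of *H2-DMb1* occur in another gene. *Ifi30*, the lysosomal reductase that opens disulfide bonds of antigens, had 1044, 1082 and 1139 counts in the tdTOMATO+ CFU-Fs and 720, 830 and 965 in the tdTOMATO- CFU-Fs. Its groups did not overlap, at a log2 fold change of 0.39 ± 0.11 (SE, adjusted p = 0.198 by limma).

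**Figure D4:**
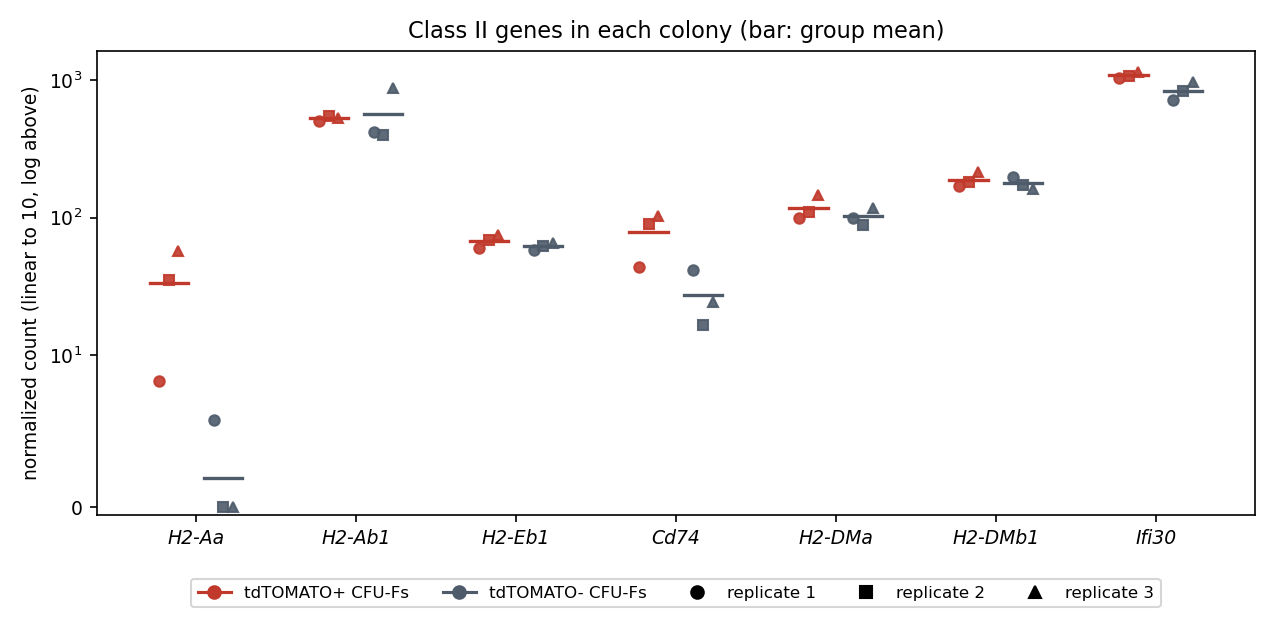
Normalized counts of the 7 class II genes in each colony (y axis linear to 10 and log above), tdTOMATO+ CFU-Fs in red on the left and tdTOMATO- CFU-Fs in gray on the right of each gene; symbols give the replicate and bars the group mean. *H2-Aa*, *Cd74* and *Ifi30* show no overlap between groups, and *H2-Ab1* is highest in tdTOMATO- replicate 3 (879).

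The 3 class II promoters that held the module are shown in the same way as those of class I, to set the promoter of *H2-Aa* beside those of the class II genes *H2-Eb1* and *H2-DMb1*, whose groups overlapped:
H2-Aa (chr17:34287859-34287919, minus strand): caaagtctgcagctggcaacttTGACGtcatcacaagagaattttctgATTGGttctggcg
H2-Eb1 (chr17:34305762-34305820, plus strand): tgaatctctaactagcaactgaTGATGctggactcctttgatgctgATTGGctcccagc
H2-DMb1 (chr17:34153083-34153142, plus strand): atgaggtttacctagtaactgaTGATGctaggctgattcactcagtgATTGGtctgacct
*H2-Aa* had the first block in the form seen in class I, and *H2-Eb1* and *H2-DMb1* had TGATG. Whether the form of the block goes with a difference between the groups was not tested. The spacers were 21, 19 and 20 bases, and the modules begin 74, 83 and 86 bases before the start of the gene in RefSeq. The GENCODE span of *H2-DMb1* begins at 34153072, upstream of the RefSeq start at 34153191, and holds the module. The interferon element was found in 0 of the 5 class II promoters in these letters, and *H2-DMa* and *Ifi30* did not hold the module.

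The colonies differed within their groups, and class I followed a common order. Over the 22 class I genes with a mean of at least 30 counts, tdTOMATO+ replicate 3 was the highest of its group in 18 and tdTOMATO- replicate 3 in 18 of the 22, while tdTOMATO- replicate 1 was the lowest of its group in 19. The median over these genes of the log2 value, centered on the mean of each gene over the 6 colonies, was -0.01, 0.12 and 0.45 in the tdTOMATO+ CFU-Fs and -0.50, -0.23 and 0.10 in the tdTOMATO- CFU-Fs. Replicate 3 of the tdTOMATO- CFU-Fs was thus level with the middle of the tdTOMATO+ CFU-Fs. Over the 6 class II genes of that level it was -0.09, 0.07 and 0.25 in the tdTOMATO+ CFU-Fs and -0.13, -0.25 and 0.02 in the tdTOMATO- CFU-Fs.

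Lists of interferon response genes and of macrophage markers showed different orders. Over 16 interferon response genes the median was -0.06, 0.24 and 0.42 in the tdTOMATO+ CFU-Fs and -0.54, -0.27 and 0.16 in the tdTOMATO- CFU-Fs, so replicate 3 was the highest and replicate 1 the lowest in either group, as in class I. Over 14 macrophage markers it was 0.48, 0.39 and 0.42 in the tdTOMATO+ CFU-Fs and -0.33, -0.40 and -0.39 in the tdTOMATO- CFU-Fs, so the colonies of a group lay close together. The macrophage list holds genes already seen to differ between these groups, which favors such an order. Its contrast with class I is therefore a description only. Of the 20 interferon response genes with a row, 17 had a log2 fold change above 0 (beside 49.0% of all genes), with a median of 0.50. limma called 0, with 2 higher at an unadjusted p under 0.05 (beside 7.53% of all genes), and DESeq2 called 1, *Gbp2*. The part of interferon or of macrophages in the class I values was not tested.

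**Figure D5:**
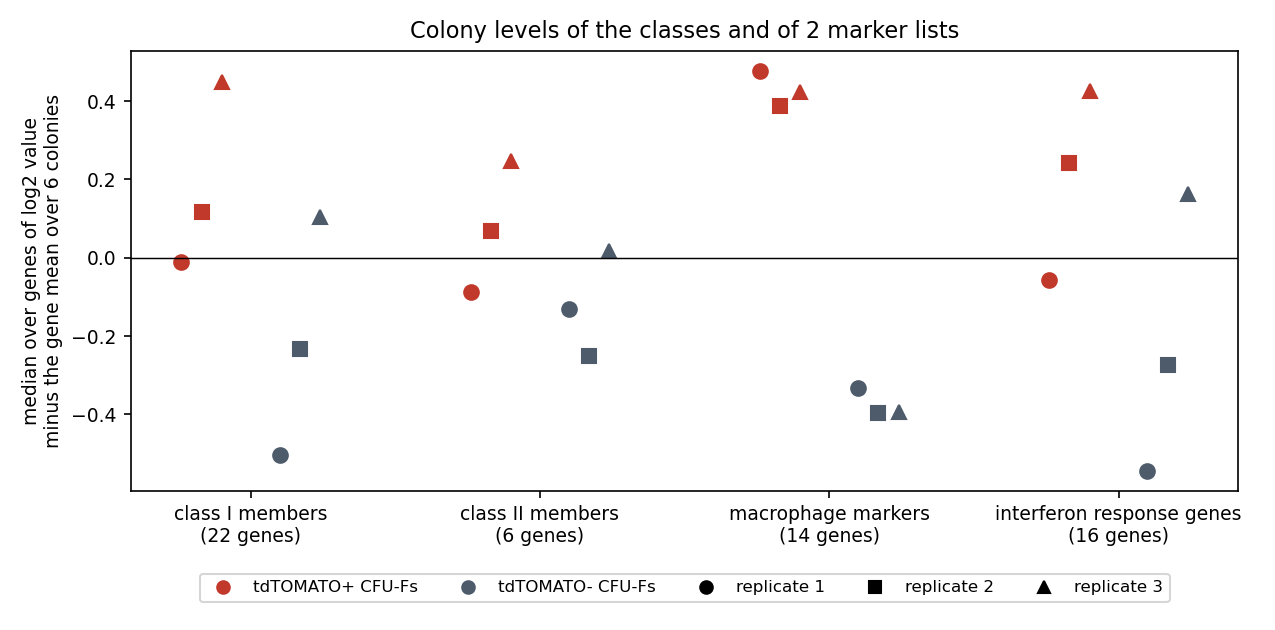
Median over the genes of a list of the log2 value in each colony minus the mean of the gene over the 6 colonies (y axis), for class I (22 genes), class II (6 genes), macrophage markers (14 genes) and interferon response genes (16 genes); tdTOMATO+ CFU-Fs are in red on the left and tdTOMATO- CFU-Fs in gray on the right, with symbols for the replicate. Class I and interferon response genes spread over the replicates of a group (-0.01 to 0.45 and -0.50 to 0.10 for class I), while macrophage markers do not (0.39 to 0.48 and -0.40 to -0.33). The macrophage list holds genes already seen to differ between the groups.

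Other genes of antigen processing were described from a list of 41, of which 40 had a row. limma called 4 of the 40 higher in tdTOMATO+ CFU-Fs (beside 1.2% of all genes) and 0 lower, and the median log2 fold change was 0.06. DESeq2 called 7 higher (beside 3.52%), these 4 and *Irf8*, *Jak2* and *March1*. The 4 were proteases of the lysosome: *Ctss* (cathepsin S, which cuts CD74) rose by 0.76 ± 0.09, *Ctsb* by 0.74 ± 0.08, *Ctsd* by 0.65 ± 0.10 and *Lgmn* (the asparaginyl endopeptidase legumain) by 0.45 ± 0.06 on the log2 scale (SE, adjusted p = 0.0135, 0.0135, 0.0249 and 0.0241 by limma). *Ctss*, for example, had 3464, 3178 and 3925 counts in the tdTOMATO+ CFU-Fs and 2006, 2132 and 2062 in the tdTOMATO- CFU-Fs, apart by far more than their spread. limma called 0 of the 4 without tdTOMATO+ replicate 1 or 2 or tdTOMATO- replicate 2, 2 without tdTOMATO+ replicate 3 and 0 without the trend and robust options, while their log2 fold changes over all alternatives stayed at 0.68 to 0.84 (*Ctss*), 0.69 to 0.78 (*Ctsb*), 0.58 to 0.72 (*Ctsd*) and 0.43 to 0.49 (*Lgmn*). *Ctsl*, another cathepsin, had a log2 fold change of -0.02 ± 0.08 (SE). Macrophages are known to be rich in lysosomal proteases, and 11 macrophage markers were called higher in the same colonies; their part in the protease values was not tested.

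*Irf1*, a transcription factor induced by interferon gamma, and *Ifngr1* and *Ifngr2*, the chains of its receptor, had log2 fold changes of 0.19, 0.02 and -0.04 (adjusted p from 0.558 to 0.944 by limma). *Irf8*, a factor of myeloid cells, had 0.66 ± 0.15 (SE, adjusted p = 0.0916 by limma and 0.0113 by DESeq2), and *March1*, a ubiquitin ligase that removes class II molecules and CD86 from the surface, had 0.58 ± 0.12 (SE, adjusted p = 0.0693 by limma and 0.00867 by DESeq2). *Jak2*, a kinase of cytokine receptors that include that of interferon gamma, had 0.45 ± 0.12 (SE, adjusted p = 0.158 by limma and 0.0269 by DESeq2). The costimulatory genes did not share a direction: *Cd86* had 0.73 and *Cd40* 0.87, without overlap between groups, and *Cd80* had -0.15 (adjusted p = 0.312, 0.332 and 0.879 by limma). *Itgax*, a marker of dendritic cells and some macrophages, had 23.7, 12.9 and 17.1 counts in the tdTOMATO+ CFU-Fs and 10.3, 2.89 and 5.01 in the tdTOMATO- CFU-Fs. Like *Batf3* below, *Itgax* reached the 10 reads needed for a row only in tdTOMATO+ CFU-Fs, so its values are no support for a difference. The other dendritic genes with a row overlapped between groups and differed in sign. *Zbtb46*, with the most counts, had 86.6, 66.0 and 107 in the tdTOMATO+ CFU-Fs and 82.4, 137 and 232 in the tdTOMATO- CFU-Fs. Its log2 fold change was -0.69, and that of *Batf3* was 1.55 (adjusted p = 0.538 and 0.631 by limma). *H2-Ke2*, of the H2-K region but outside the pathway, had a log2 fold change of -0.03 ± 0.10 (SE, adjusted p = 0.950 by limma).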

How the data were processed

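Whole colonies, 3 tdTOMATO+ and 3 tdTOMATO-, were sequenced as 50 bp single-end reads. Per the methods of the study, reads were trimmed with TrimGalore and Cutadapt, aligned with STAR to GRCm38, kept where they mapped uniquely and counted per gene with HTSeq; genes reaching 10 reads in 1 library or more were kept and their counts scaled by the size factors of DESeq2; tool versions are not given in the sources used here. This normalized count is the signal the authors deposited. Their own fold changes, SE, test statistics, p-values, gene lists and ontology terms were not used.

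All values were whole multiples of 1 step per library (100% within 0.001), from which reads were recovered. The step of replicate 3 of either group is so close to 1 (1.00) that its recovery rests on the unrounded values. limma 3.58.1 (R 4.3.3; trend and robust) was run on log2 of the normalized count plus 1 over all 14735 genes, with no covariate. edgeR 4.0.16 (quasi-likelihood, TMM) and DESeq2 1.42.0 on recovered reads were alternatives, as were pseudocounts of 0.5 and 5, a mean of at least 10 counts, other scalings, limma without trend and robust, a replicate block and leaving out each colony. The fits were tested on simulated data. At an adjusted p under 0.05, 13 of 181 calls were false by limma, 13 of 181 by edgeR and 51 of 232 by DESeq2. Ratios were tested by an exact permutation test. Exon lengths, overlaps and shared 50-base stretches come from GENCODE transcripts on GRCm38, and promoter sequences from RefSeq (GRCm38.p6). Genes with values in every colony were the classical and class II chains, the transactivators and the main processing genes, plus any other gene past the threshold; *H2-M3*, *H2-Q4* and *H2-M1* were added after their values were seen. The genes, lists and tests were chosen with earlier results of these data known, and the macrophage list holds genes already seen to differ.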

Additional observations from a re-analysis of the deposited data

How the results depend on the processing

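Calls varied with the tool. In the whole table, genes called higher in tdTOMATO+ CFU-Fs numbered 177 by limma, 498 by DESeq2 and 1 by limma without trend and robust, and genes called lower numbered 21, 159 and 0. Leaving out 1 colony gave 1 to 178 higher and 0 to 44 lower, the fewest without tdTOMATO+ replicate 2. Among the 36 MHC and antigen presentation genes, DESeq2 called 5 higher (3 of class I and 2 of class II) against 0 by limma. Leaving out 1 colony gave 0 to 1, the 1 being *H2-Aa* of class II without tdTOMATO- replicate 1, and 6 to 22 at an unadjusted p under 0.05, a count added after 0 calls were seen. The causes were not tested. With a replicate block, limma called 2 of the 36, both of class I: *H2-K1* (adjusted p = 0.0397) and *H2-Q4* (adjusted p = 0.0454). The numbers were not taken as pairs. The correlation of deviations was 0.08, 0.01 and 0.16 for same-numbered colonies and -0.14 to 0.06 for different-numbered ones. Whether same-numbered colonies share a source was not tested. With the block limma found 18 of the 36 higher at an unadjusted p under 0.05, against 12 without it. No count over all genes at this threshold stands beside 18, or beside the 6 to 22 above. These counts are therefore not read as particular to the 36 genes. The block moved the calls over all genes to 124 higher and 24 lower.

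Of the 36 genes, the 7 called under any setting (*H2-D1*, *H2-K1*, *H2-Q4*, *Nlrc5*, *Psmb9*, *H2-Aa* and *Cd74*) kept their direction under all 15 alternatives. The 7 were picked by these same settings, most of which use all colonies, and *H2-Aa* has a row only through tdTOMATO+ CFU-Fs. Their steady direction is therefore a description only. Among uncalled genes, the log2 fold change of *H2-Ab1* turned to 0.00011 with TMM scaling and 0.034 with total read scaling, and that of *H2-Ke2* to 0.0084 with total read scaling, under which the median of all genes was 0.03. Leaving out 1 colony spanned 0 for *H2-Ab1* (-0.20 to 0.36), *H2-DMb1* (-0.0078 to 0.16), *H2-Ke2* (-0.10 to 0.042), *H2-T10* (-0.13 to 0.76), *H2-M5* (-0.37 to 0.23), *H2-K2* (-0.86 to 0.25) and *H2-Q10* (-1.51 to 0.063). The 3 proteasome ratios kept their direction, at 0.21 to 0.71 (*Psmb8*/*Psmb5*), 0.76 to 1.16 (*Psmb9*/*Psmb6*) and 0.09 to 0.44 (*Psmb10*/*Psmb7*) on the log2 scale with 1 colony left out. The filter on a mean of 10 counts gave no value for *H2-M1*, *H2-Q10* and *H2-K2*. Depth limits the 7 genes with a mean under 30 counts, *H2-Aa* among them.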
